A study of Homo sapiens with 3 samples.

Results

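Chromatin accessibility was described at 9 interferon response genes, STAT2, IRF1, IRF7, IRF9, ISG15, IFIT1, IFIT3, MX1 and OAS1, in hCMEC/D3 cells. This immortalized human line models the endothelium of brain microvessels, which forms the blood-brain barrier. The genes were chosen by symbol, and all 9 matched a RefSeq table holding 20037 protein-coding genes of GRCh38.p14. Cultures were confluent, on plates coated with collagen I, at passages 4 to 6. The labels name no interferon, infection or other treatment, so the values describe these genes in untreated culture of 1 cell line. The measurements are those of 1 ATAC-seq library, the one numbered 2, out of 3 libraries of the series, and the 2 RNA libraries were not used here. ATAC-seq marks open chromatin through the Tn5 transposase, which cuts and tags accessible DNA. The peaks rest on 22188172 tags. With 1 library there is no replicate error and no test: every value below is a description of this library, and the order of 2 similar values may not hold in another.

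Interferons are cytokines that cells release when they sense viral nucleic acid. Type I and type III interferons act through receptors and Janus kinases on the ISGF3 complex, of which STAT2 and IRF9 are subunits. ISGF3 binds the interferon stimulated response element (ISRE), a repeat of GAAA. Interferon gamma acts through another element, the gamma activated site (GAS). The genes switched on in this way include antiviral effectors and several factors of the pathway itself. Brain endothelium meets interferons from the blood and from the brain.

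A peak was found at an end of all 9 genes, where an end means within 1 kb of either end of the annotated gene. The same was true of 72.8% of protein-coding genes. Among the genes nearest to each member in length the share was 67.6% on average, from 22.8% to 82.8% over the 9 comparisons. Genes are not replicates, so the difference was not tested. Within each gene and 10 kb on both sides there were 39 peaks in all, none of them shared between members. All 9 genes had at least 1 such peak, as did 89.8% of protein-coding genes. Of the 39 peaks, 11 lay at a gene end, 9 inside a gene away from its ends, and 19 in the flanks. A gene had a median of 4 peaks (1 to 6), and the median over all protein-coding genes was 3 (quartiles 2 and 6).

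The strand, and with it the transcription start, was known for 8 of the 9 genes, IRF7 being the exception. All 8 had a peak within 1 kb of the start, against 71.2% of protein-coding genes of known strand. At the far end of the gene a peak was found for 3 of the 8, IRF1, MX1 and ISG15, against 19.1%. ISG15 is so short that 1 peak reached both of its ends.

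**Figure D1:**
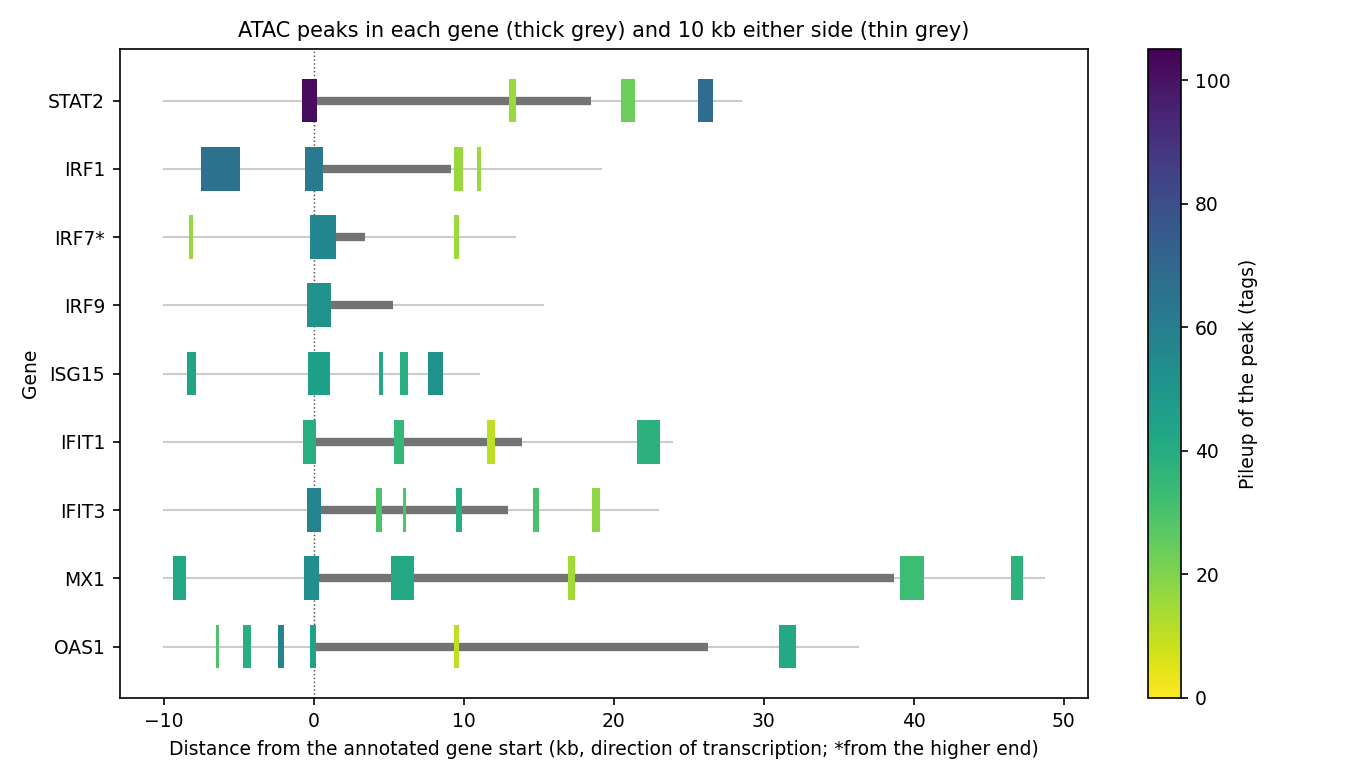
Peaks of the 9 genes along the distance in kb from the annotated start, in the direction of transcription; thick grey lines are genes, thin grey lines the 10 kb flanks, and coloured boxes peaks, shaded by pileup in tags. IRF7 (*) has no strand in the tables and is drawn from its end at the higher coordinate. A box lies at 0 in every row, and STAT2 has the darkest, at 102 tags.

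STAT2 encodes a subunit of the ISGF3 complex that carries its activation domain. It spans 18511 bases of chromosome 12, from 56341597 to 56360107, on the minus strand. The peak at its start ran from 56359882 to 56360888, from 781 bases before the start to 225 after it, and was 1007 bp long. Its pileup, the height of the stacked, extended tags that the peak caller reports for the whole peak, was 102 tags, the highest among the 39 peaks. The fold over local background was 7.64, also the highest of the 39. Among 388 protein-coding genes of similar length with a peak at an end, its pileup stood at the 98.2nd percentile. The same peak lies within 1 kb of an end of APOF, an apolipoprotein gene, so it cannot be assigned to STAT2 alone. Here and below, an end of another gene can be its start or its far end, and these were not told apart. A weaker peak of 441 bp and 15.8 tags lay inside STAT2. Both flank peaks, of 23.5 and 68.5 tags, lay at ends of other genes, IL23A and PAN2. None of the motifs searched was found in the bases before the STAT2 start, which are shown as a contrast to the promoters that hold one.
STAT2, GRCh38.p14, chr12:56360108-56360357, minus strand: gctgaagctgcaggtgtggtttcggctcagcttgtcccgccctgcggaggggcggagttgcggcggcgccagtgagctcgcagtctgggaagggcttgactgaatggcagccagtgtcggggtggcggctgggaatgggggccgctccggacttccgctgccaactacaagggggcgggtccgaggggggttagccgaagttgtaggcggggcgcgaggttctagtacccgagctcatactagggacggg

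IRF9 encodes the DNA-binding subunit of ISGF3. The gene covers 5301 bases of chromosome 14, from 24161265 to 24166565, on the plus strand. It had a single peak within 10 kb, the lowest number of the 9 genes. That peak was long, 1653 bp, from 475 bases before the start to 1177 after it, with 51.0 tags and a fold of 4.69. It also lay within 1 kb of an end of the neighbouring gene RNF31, which encodes a ubiquitin ligase subunit. A match to the GAS consensus TTCNNNGAA, in capitals, began 63 bases before the start.
IRF9, GRCh38.p14, chr14:24161015-24161264, plus strand: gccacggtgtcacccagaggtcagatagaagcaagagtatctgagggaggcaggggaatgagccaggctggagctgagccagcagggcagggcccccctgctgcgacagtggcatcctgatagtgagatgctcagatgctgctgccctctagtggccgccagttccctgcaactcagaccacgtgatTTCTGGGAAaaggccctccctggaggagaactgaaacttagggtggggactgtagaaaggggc

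IRF1 encodes an activator that is itself induced by interferon gamma. It spans 9165 bases of chromosome 5, from 132481609 to 132490773, on the minus strand, with no end of another protein-coding gene at any of its 4 peaks. The start peak, from 132490169 to 132491348, had 62.1 tags and a fold of 4.80. A second peak of almost the same pileup, 65.7 tags, lay upstream, from 4917 to 7507 bases before the start. At 2591 bp it was the longest of the 39 peaks. Its fold was 3.01, over a local background of 21.2 tags, compared with 12.1 tags at the start. The peaks past the far end were weak, with 16.3 and 15.6 tags. The promoter holds a GAS match beginning 124 bases before the start, shown in capitals, and a match to the NF-kappaB motif beginning 50 bases before it.
IRF1, GRCh38.p14, chr5:132490774-132491023, minus strand: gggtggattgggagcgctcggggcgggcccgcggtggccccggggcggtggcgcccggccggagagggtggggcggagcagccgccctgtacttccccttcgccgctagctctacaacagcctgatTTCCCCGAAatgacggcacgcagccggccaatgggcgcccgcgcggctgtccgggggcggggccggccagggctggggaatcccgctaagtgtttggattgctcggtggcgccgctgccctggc

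IRF7 encodes the factor that amplifies the production of type I interferon. It is short, 3396 bases of chromosome 11 from 612555 to 615950, and its peak at the end of higher coordinate measured 1722 bp, the longest gene-end peak of the 9 genes. That peak had 57.0 tags, but its fold of 3.57 stood at the 29.4th percentile of genes of similar length, with a local background of 15.3 tags. It also reached within 1 kb of an end of CDHR5, a cadherin-related gene. Both flank peaks were weak, with 15.5 and 16.0 tags. The promoter table has no entry for IRF7.

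Among the transcription factor genes the gene-end peak thus ran from 51.0 tags at IRF9 to 102 tags at STAT2. Among the 5 induced effector genes it ran from 38.6 tags at IFIT1 to 57.4 tags at IFIT3, so the ranges overlap. The effector genes had more peaks outside their ends: 8 inside the genes and 13 in the flanks, against 1 and 6 for the 4 factor genes. MX1 and OAS1 are also the longest of the 9 genes, and ISG15 is the shortest.

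ISG15 encodes a ubiquitin-like protein that is attached to other proteins during the interferon response. It is the shortest member, 1044 bases of chromosome 1 from 1013497 to 1014540. A peak of 1499 bp covered the whole gene, from 384 bases before the start to 1114 after it, with 45.7 tags and a fold of 3.23. The 4 flank peaks had 39.1 to 51.6 tags, so the gene-end peak was not the highest there. Those of 39.1 and 51.6 tags lay within 1 kb of an end of AGRN, which encodes agrin. Folds in these flanks were low, from 1.78 to 3.81. The local background in the flanks reached 23 tags, compared with a median of 7.88 tags at gene-end peaks of protein-coding genes. Overlapping matches to the ISRE core, here GAAA, any 2 bases and GAAA, began 113 and 107 bases before the start.
ISG15, GRCh38.p14, chr1:1013247-1013496, plus strand: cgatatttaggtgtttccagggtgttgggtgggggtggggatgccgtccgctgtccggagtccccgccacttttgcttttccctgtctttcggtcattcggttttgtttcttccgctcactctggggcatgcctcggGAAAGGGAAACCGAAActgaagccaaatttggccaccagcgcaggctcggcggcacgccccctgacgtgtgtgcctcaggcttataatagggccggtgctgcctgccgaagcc

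IFIT1 encodes a protein that binds viral RNA lacking host cap marks. It spans 13865 bases of chromosome 10, from 89392623 to 89406487. Its start peak reached 719 bases upstream and 137 downstream, with 38.6 tags, the lowest gene-end value of the 9, and a fold of 5.31. An internal peak 5340 to 6001 bases past the start was nearly as high, at 35.2 tags, with a fold of 5.93. A further internal peak had 10.3 tags, the lowest pileup of the 39, against 8 tags for the lowest peak of the whole list. The flank peak of 38 tags lay at an end of IFIT5, a paralog, and of LIPA. The complement of the ISRE core occurred at 116 and 103 bases before the start.
IFIT1, GRCh38.p14, chr10:89392373-89392622, plus strand: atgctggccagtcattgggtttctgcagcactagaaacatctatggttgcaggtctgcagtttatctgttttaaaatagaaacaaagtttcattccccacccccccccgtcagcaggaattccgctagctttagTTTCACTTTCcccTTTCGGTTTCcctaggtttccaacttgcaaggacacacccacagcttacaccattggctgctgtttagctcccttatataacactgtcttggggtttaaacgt

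IFIT3, a partner of IFIT1 in the same cluster, spans 12972 bases of chromosome 10, from 89327997 to 89340968. Its start peak had 57.4 tags, a length of 931 bp and a fold of 5.07. It was followed by 3 internal peaks of 29.4, 29.1 and 38.4 tags and 2 flank peaks of 30.1 and 17.9 tags. No peak of IFIT3 lay at an end of another protein-coding gene. The first internal peak, from 89332117 to 89332560, covered a second annotated start, and was the least enriched of the 6, at a fold of 2.34. Both starts carry the ISRE core on the complementary strand, and they are shown together because each lies under a peak of its own. The capitals mark the ISRE core and, at the second start, an overlapping repeat with 1 base between its parts.
IFIT3 start 1, GRCh38.p14, chr10:89327747-89327996, plus strand: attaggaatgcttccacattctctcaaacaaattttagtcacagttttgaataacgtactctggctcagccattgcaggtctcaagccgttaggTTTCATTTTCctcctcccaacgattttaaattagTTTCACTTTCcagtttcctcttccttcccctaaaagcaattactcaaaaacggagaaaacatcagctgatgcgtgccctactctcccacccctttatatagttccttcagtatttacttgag
IFIT3 start 2, GRCh38.p14, chr10:89332279-89332528, plus strand: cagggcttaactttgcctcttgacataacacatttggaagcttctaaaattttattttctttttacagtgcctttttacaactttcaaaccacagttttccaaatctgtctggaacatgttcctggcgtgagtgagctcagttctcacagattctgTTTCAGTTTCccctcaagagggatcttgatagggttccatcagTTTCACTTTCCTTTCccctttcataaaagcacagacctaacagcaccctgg

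MX1 encodes a dynamin-like GTPase that blocks viral replication. It is the longest member, with 38657 bases of chromosome 21 from 41420558 to 41459214. The peak at its first start measured 1027 bp and 53.3 tags, with a fold of 5.97. A second, longer peak of 1525 bp and 41.9 tags, from 41425725 to 41427249, covered the second annotated start. A further peak of 14.5 tags lay inside the gene, and start 3 of the annotation had no peak. Past the far end, beginning 404 bases beyond the gene, lay a peak of 1589 bp and 32.9 tags. The flank peak 8491 to 9403 bases upstream had 41.9 tags and a fold of 6.83, and the one downstream had 37.0 tags and a fold of 6.43, both folds higher than that at the start. At the first start the ISRE core lies 12 to 21 bases past the start, overlapping a GAAA repeat with a 1-base gap; only the 30 bases around them are shown, with both in capitals. At the second start the window has no ISRE core and holds GAAA repeats spaced by 1 base, in capitals.
MX1 start 1, GRCh38.p14, chr21:41420557-41420586, plus strand: gcgagcaGAAATGAAACCGAAActgaattg
MX1 start 2, GRCh38.p14, chr21:41425989-41426238, plus strand: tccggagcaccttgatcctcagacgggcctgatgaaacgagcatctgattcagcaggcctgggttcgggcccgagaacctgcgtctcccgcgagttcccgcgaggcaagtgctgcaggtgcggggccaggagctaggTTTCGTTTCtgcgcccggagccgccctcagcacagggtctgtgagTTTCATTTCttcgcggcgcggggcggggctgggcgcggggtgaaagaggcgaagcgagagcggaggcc

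OAS1 encodes an enzyme that makes 2′-5′ oligoadenylate, the activator of RNase L. It spans 26258 bases of chromosome 12, from 112906962 to 112933219. Its start peak, from 112906746 to 112907121, was only 376 bp long, the shortest gene-end peak of the 9 and at the 6.2nd percentile of genes of similar length. It had 44.6 tags, near their median of 46.7. Upstream lay 3 further peaks, at 1966 to 2389, 4204 to 4742 and 6318 to 6541 bases before the start. They had 57.9, 38.7 and 29.2 tags, and the nearest was higher than the start peak itself. OAS1 was the only member with 3 peaks in its upstream flank. The last flank peak, of 41.5 tags, lay at an end of OAS3, and the peak inside the gene had 10.4 tags. The window before the start has no ISRE core; it holds the repeat with a 1-base gap, beginning 17 bases before the start, and a GAS match beginning 168 bases before it.
OAS1, GRCh38.p14, chr12:112906712-112906961, plus strand: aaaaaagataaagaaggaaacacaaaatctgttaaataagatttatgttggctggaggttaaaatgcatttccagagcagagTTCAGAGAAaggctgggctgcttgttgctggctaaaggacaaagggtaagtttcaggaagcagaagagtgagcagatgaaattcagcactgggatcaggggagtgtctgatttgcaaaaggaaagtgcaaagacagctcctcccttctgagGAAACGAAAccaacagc

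The promoter windows, 250 bases before to 50 after each annotated start, were available for 8 members with 11 starts. A peak overlapped 10 of the 11 windows, and each of the 8 members had such a window, against 70.2% of protein-coding genes with a window. In 8 of these windows the peak covered all 300 bases. It covered 94.0% at the second start of IFIT3 and 88.7% at OAS1.

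Motifs were searched on both strands and are matches of letters, not measured binding. The ISRE core was found in 6 of the 11 windows, at ISG15, IFIT1, both starts of IFIT3 and starts 1 and 3 of MX1. It occurs in 3.57% of all 35116 promoter windows of the table. Per gene, 4 of 8 members had it, against 4.16% of protein-coding genes with a window. Every match lay within a peak except that at start 3 of MX1. None of STAT2, IRF1 and IRF9 had it. The repeat with a 1-base gap, GAAANGAAA, was found in 4 windows, at OAS1, start 2 of IFIT3 and starts 1 and 2 of MX1, against 3.12% of windows. This second form was added after the OAS1 promoter had been read. The GAS consensus TTCNNNGAA was found in 4 windows, at IRF1, IRF9, OAS1 and start 3 of MX1, against 7.66%. The AP-1 motif TGANTCA occurred once, at the second start of MX1, against 7.71% of windows, and the NF-kappaB motif at IRF1 alone, against 5.91%. Some of these matches overlap, as at ISG15, at start 2 of IFIT3 and at starts 1 and 3 of MX1.

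**Figure D2:**
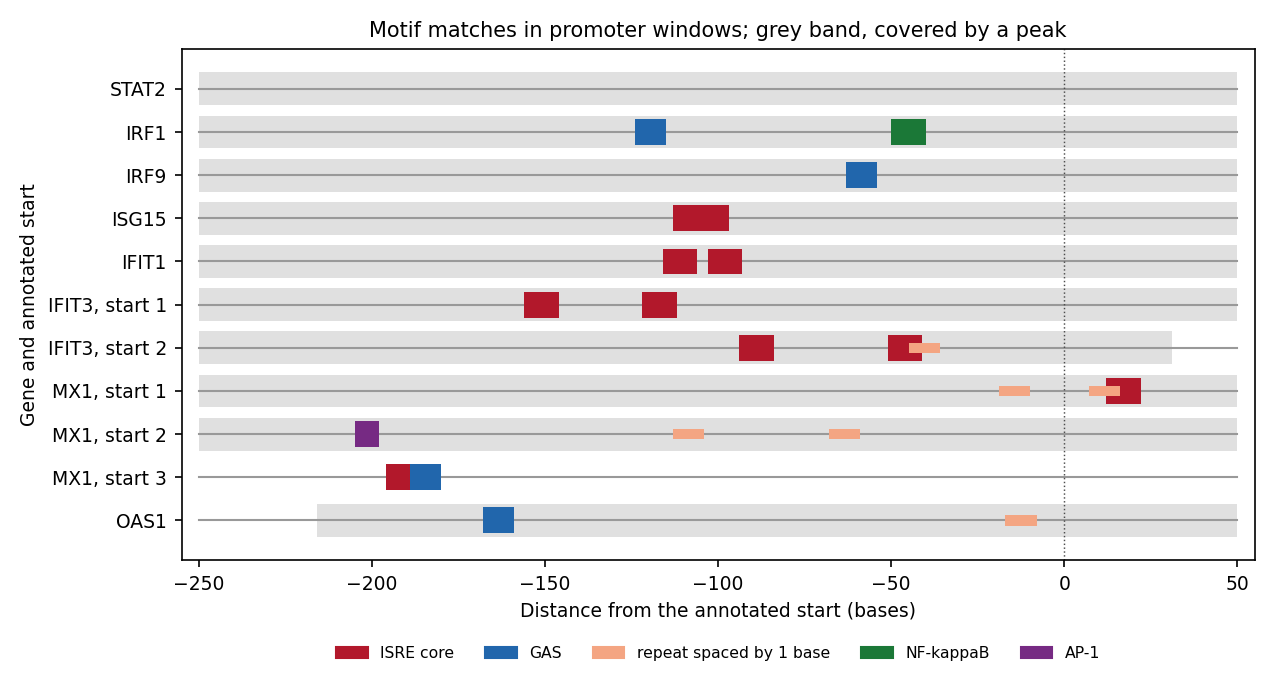
Motif matches in the 11 promoter windows, by distance in bases from the annotated start; coloured boxes are matches and the grey band is the part covered by an ATAC peak. The ISRE core appears in 6 rows, and start 3 of MX1 is the row without a band.

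The gene-end peaks were next set against all protein-coding genes. Where a gene had several, the one of highest pileup was used. The 9 genes had a median pileup of 53.3 tags, and the 14595 protein-coding genes with such a peak had a median of 45.7 tags (quartiles 30.5 and 60.2). Of the 9, 6 were above that median; OAS1 and IFIT1 were below it, and ISG15, at 45.7 tags, was level with it. Peak length had a median of 1027 bp against 1058 bp, with quartiles of 759 and 1369 bp, and 4 of 9 genes above. The median fold was 4.80 against 5.02, with 4 of 9 above. The local background under the members' peaks had a median of 11.3 tags, compared with 7.88 tags. With no control, this background comes from the same ATAC library, over up to 10000 bp, and can include nearby open chromatin.

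**Figure D3:**
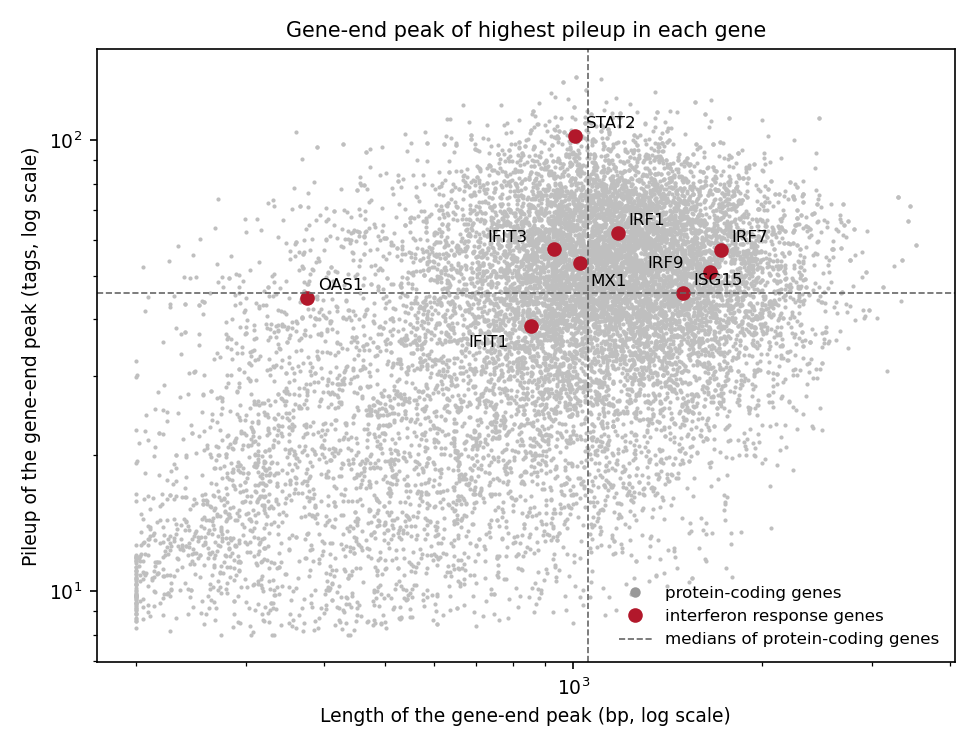
Pileup (tags, log scale) against length (bp, log scale) of the gene-end peak of highest pileup; grey points are 14595 protein-coding genes and red points the 9 members, with dashed lines at the medians of the grey points. STAT2 lies near the top of the cloud, and OAS1, at 376 bp, lies apart from the other members to the left.

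Longer genes have room for more peaks, so each member was also ranked among the 500 protein-coding genes nearest to it in length. By number of peaks, 8 of the 9 genes were above the median of their comparison genes and IRF9 was below. ISG15 had 5 peaks, at the 97.1st percentile, where genes of 812 to 1345 bases had a median of 0. IFIT3 had 6, at the 93.7th percentile, against a median of 3. OAS1 stood at the 80.2nd percentile, MX1 at the 76.1st and IRF1 at the 74.7th. IFIT1, IRF7 and STAT2 lay between the 63.6th and the 67.1st, within the quartiles of their comparison genes. IRF9 stood at the 23.8th percentile. Of the 39 peaks, 10 lay within 1 kb of an end of another protein-coding gene, 3 of them gene-end peaks and 7 in the flanks. Without such peaks 6 of the 9 genes were above the median, with STAT2 at the 19.7th percentile, IRF7 at the 41.3rd and IRF9 left with no peak. Requiring a fold of at least 4 also lowered the count, to 4 of 9, with no peak left at ISG15 or IRF7.

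**Figure D4:**
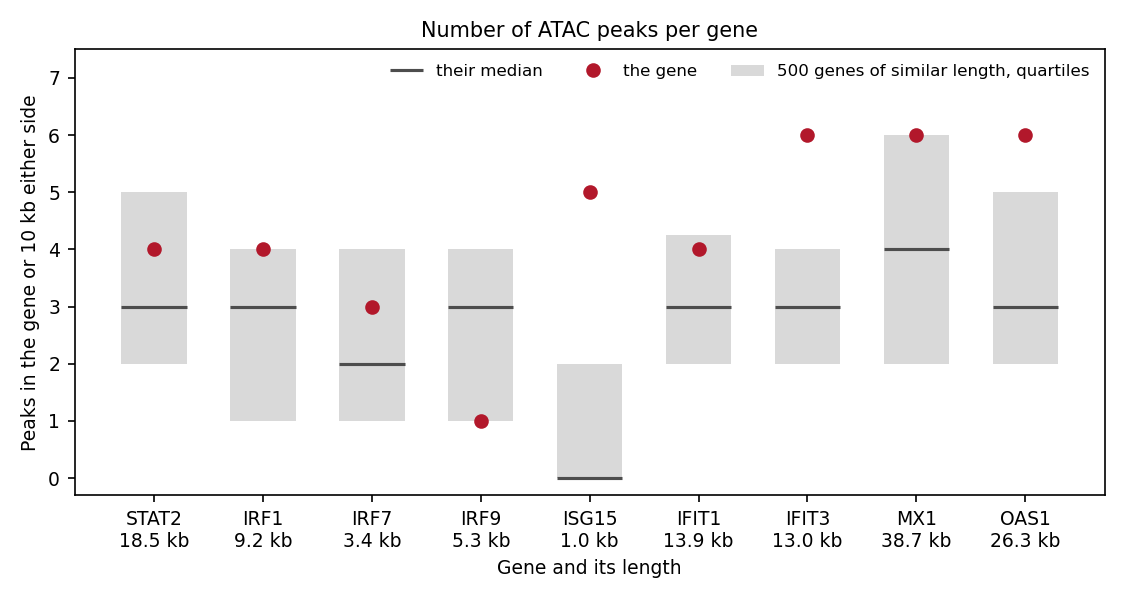
Number of peaks in each gene or 10 kb either side (red points) with the quartiles (grey boxes) and median (lines) of the 500 protein-coding genes nearest in length. ISG15, IFIT3 and OAS1 lie above their boxes, and IRF9 is the one gene below its line.

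The other genes of the interferon pathway, 97 symbols in 7 roles, were counted in the same way. A peak lay at an end of 82 of them (84.5%), next to the 72.8% of protein-coding genes and a mean of 72.1% over the genes nearest to each in length. With a fold of at least 4 the count was 59 (60.8%), close to the 56.0% of protein-coding genes. Neighbouring genes share peaks in this count: PARP9 and DTX3L, TAP1 and PSMB9, and RSAD2 and CMPK2 each had 1 peak in common. Their gene-end pileup had a median of 45.1 tags. The interferon genes themselves had the lowest share of the 7 roles, with a peak at an end of 2 of 10. They are short, from 839 to 4973 bases, and genes of similar length had such a peak in 44.6% of cases on average, ranging from 18.4% to 70.6% over the 10 comparisons. The 2 interferon genes with a peak at an end were the lambda genes IFNL2 and IFNL3, with only 13.8 and 12.4 tags. No peak at all lay within 10 kb of IFNW1, IFNE, IFNG or IFNL1.

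Receptors and kinases had a gene-end peak in 8 of 9 cases, next to a mean of 80.4% over the genes nearest to each in length. JAK2, a Janus kinase of the interferon gamma receptor, had the highest pileup, 91.5 tags, and the lambda receptor gene IFNLR1 the lowest, 11.8. The exception was IFNGR2, a subunit of the interferon gamma receptor, which had 8 peaks inside or beside the gene. Among the other transcription factors all 8 had one, next to 77.7% over genes of similar length. STAT3 had the highest at 78.9 tags. IRF4, a lymphocyte factor, had the lowest at 9.1 tags.

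Sensors and adaptors had one in 11 of 12 cases, from 66.7 tags at STING1, the adaptor of cytosolic DNA sensing, to 10.1 tags at AIM2, an inflammasome sensor, and the exception was ZBP1. Antiviral effectors had one in 20 of 21 cases, from 70.3 tags at IFITM3 to 24.5 at IFIT2, and the exception was IFIT1B, a paralog of IFIT1. Other induced genes had one in 27 of 31 cases, from 97.8 tags at PML to 18.2 at SAMD9L. The exceptions were IFI27, GBP5, SP110 and DDX60, of which IFI27, SP110 and DDX60 had a peak over a start listed in the promoter table. All 6 negative regulators had one, from 55.3 tags at USP18, the protease that removes ISG15, to 44.3 at TRIM21. Over genes of similar length the mean share was 77.9% for sensors and adaptors and 70.4% for antiviral effectors. It was 76.1% for other induced genes and 72.1% for negative regulators. The roles hold few genes, and these differences were not tested.

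**Figure D5:**
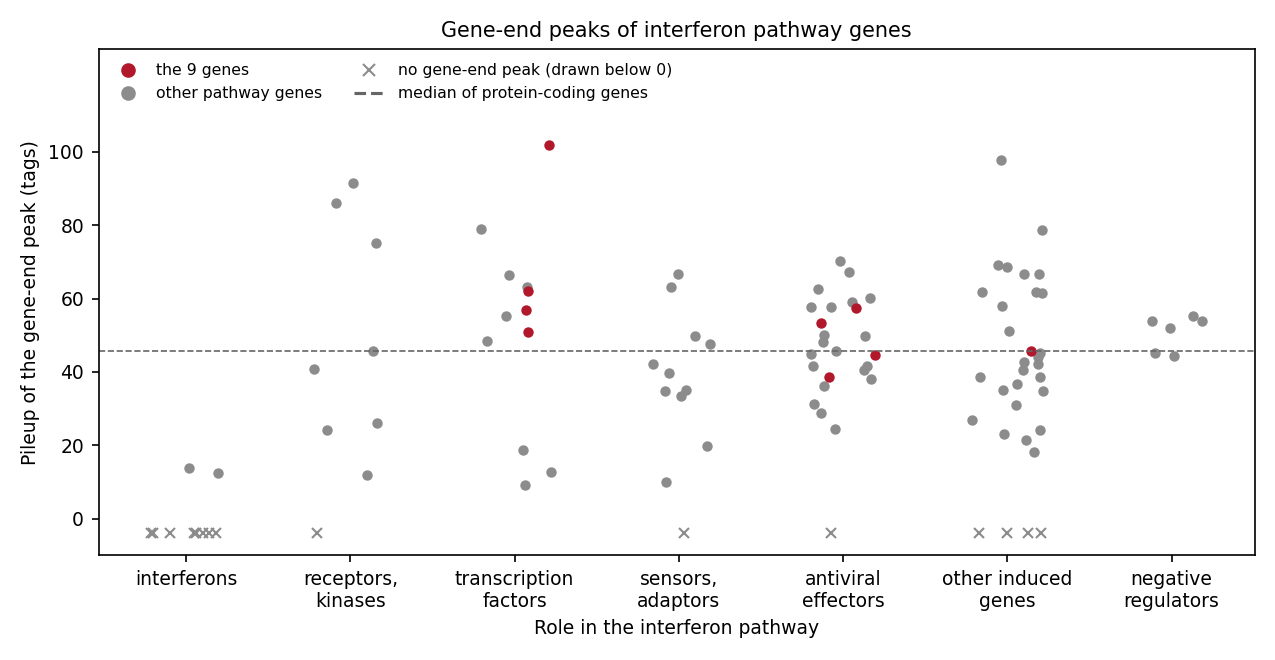
Pileup in tags of the gene-end peak of highest pileup for the 9 members (red) and 97 other pathway genes (grey), by role, with crosses for genes lacking a gene-end peak and a dashed line at the median of protein-coding genes. In the interferon column 8 of 10 genes are crosses, and the remaining 2 are at 12.4 and 13.8 tags.

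Among these other genes the ISRE core was present in a promoter window of 18 of 28 other induced genes and of 8 of 13 other antiviral effectors. It was present in 3 of 8 sensors and adaptors and 2 of 5 negative regulators, and in none of 8 receptors and kinases or 4 transcription factors. Over all roles 35 of 75 genes with a window had it (46.7%), against 4.16% of protein-coding genes. Groups of 8 and 4 genes are too small to tell a count of 0 from that share. In 32 of the 35 genes a match lay within a peak, including all 26 of the induced and effector genes, among them RSAD2, OAS3, IFI44 and HERC5, which were picked as examples. With or without the core, a window overlapped a peak in 28 of 28 other induced genes and 12 of 13 other antiviral effectors. Over all roles this held for 62 of 75 genes, against 70.2% of protein-coding genes with a window. These counts pool genes with and without the core, and whether the core goes with an open promoter was not tested. Of the interferon genes with a window, 4 of 9 had the core, and in 2 of those, IFNL2 and IFNL3, it lay within a peak. Over the whole promoter table, 41.2% of windows with an ISRE core overlapped a peak, fewer than the 51.9% of all windows.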

How the data were processed

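Per the file headers, the authors ran MACS 2.2.7.1 in broad mode on 1 library and no control. Tags were limited to 1 per position, shifted by -100 bp and extended to 200 bp, and peaks were taken at q of 0.05 (0.1 for broad regions). The header gives 31532245 tags, 22188172 after filtering, single-end mode and the caller's mouse genome size, 1870000000 bp. The deposited pileup is a signal in tags, and the fold is a ratio of pileup to local background. The list also gives, per the file headers, the −log10 p-value of a peak and its −log10 q-value. Bowtie2, SAMtools 1.13, Picard and MACS2, and the builds GRCh38 and mm10, are listed in the submitters' processing notes. Coordinates were read as GRCh38: 51.9% of RefSeq promoter windows overlapped a peak, against 5.07% to 5.99% after offsets of 2000 to 50000 bp in either direction.

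Placement of peaks (overlap of at least 1 bp) and ranking by length were done in Python 3.11.15 with pandas 2.3.3 and tested on simulated data. Local background was computed as (pileup + 1) / fold - 1. Gene extents, starts and sequences are RefSeq's. Exons were not annotated. The members and lists were chosen with earlier results of these data known. All members are named. Of each role the genes of highest and lowest gene-end pileup and those without a peak are named. The values of 1 other gene of the pathway are not reported here. The RNA tables were not used, since they list transcripts that no table here pairs with genes. Of the label's markers, 10 of 10 endothelial, 4 of 6 leukocyte, 4 of 5 mural and 4 of 6 neuronal or glial genes had a gene-end peak; all but the first lie near the 72.8% of protein-coding genes, so these counts do not separate cell types. An absent peak means not detectable at this depth.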

Additional observations from a re-analysis of the deposited data

How the results depend on the processing

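Of 39 alternative values of the summary results, 32 stayed near the reported value and 7 moved, where near means within 1.5 times for a count and within the 95% Wilson interval over 500 genes, 70.8 to 78.4, for the median percentile. The 39 peaks became 73 with 25 kb either side and 17 with a fold of at least 4. The median percentile by number of peaks, 74.7, became 67.0 with 5 kb either side, 65.8 with −log10 q of at least 5, 45.8 with a fold of at least 4 and 79.3 without peaks at ends of other protein-coding genes. The 8 genes above the median of similar length became 4 with a fold of at least 4; the cause was not tested for any of these, except that fewer or more peaks were counted. A gene-end peak was kept by 9 of 9 members in windows of 500 and 2500 bp, with the q filter, with an overlap of 200 bp and with as many peaks chosen by pileup. The fold filter left 6 of 9, losing IRF7, ISG15 and OAS1, against 56.0% of protein-coding genes. Leaving out peaks at ends of other genes also left 6, losing STAT2, IRF7 and IRF9, against 55.5%. For the other pathway genes the count of 82 ran from 59 with the fold filter (60.8%, against 56.0% of protein-coding genes) to 88 in windows of 2500 bp (90.7%, against 79.2%), so the difference from the background was smallest with the fold filter. The pileup filter, the member count without peaks at ends of other genes and the start-only count of pathway genes were added later, with the data in view. No paired analysis was possible because the comparison uses a single ATAC library, and for the same reason no replicate could be left out.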

Other observations

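Paralogs of the members beside them in the genome differed in their gene-end peaks. In the IFIT cluster on chromosome 10, IFIT5 had 38 tags over 1530 bp and IFIT2 had 24.5 tags over 322 bp. IFIT1B, which lies between IFIT3 and IFIT1, had none, though 3 peaks lay in its flanks, among them the start peak of IFIT1. In the OAS cluster on chromosome 12, OAS2 had the highest value, 59.0 tags over 1809 bp, and OAS3 had 41.5 tags over 1128 bp, both longer peaks than the 376 bp at OAS1. MX2, the neighbour of MX1 on chromosome 21, had 48.3 tags over 1026 bp, almost the length of the MX1 start peak. The short IFITM genes on chromosome 11, which encode membrane proteins that block viral entry, had 57.7 tags at IFITM1, 62.5 at IFITM2 and 70.3 at IFITM3. The folds of these peaks were low, 2.14, 3.32 and 3.09, below the lower quartile of 4.01 for protein-coding genes. IFITM2 had 7 peaks in the gene or its flanks, at the 99.8th percentile of genes of similar length, and these genes lie close enough together that the same peaks enter the counts of several of them.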
